A study of Mus musculus with 24 samples.

Results

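Transcript levels of 5 transcription factor genes that are commonly grouped as regulators of early lymphoid fate, Ikzf1, Mef2c, Satb1, Bcl11a and Runx1, were followed through sorted mouse bone marrow progenitors. They were chosen by name, as the rows of the deposited expression table whose gene identifiers map to these 5 symbols. All 5 were found among 17149 genes, and all 5 passed the filter on low values. Each lay among the genes with the highest counts, with mean levels over 24 libraries above those of 97.5 to 99.4% of all genes. This rank is not corrected for length, and the members' annotated exons cover 5777 (Ikzf1) to 19027 bases (Satb1).

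RNA was sequenced from cells of the LSK gate (negative for lineage markers, positive for Sca1 and Kit), which holds the stem cells and earliest progenitors of blood. The gate was divided by surface CD135, the product of Flt3. CD135-negative cells are called HSC here, as in the sample titles, and CD135-positive cells LMPP, for lymphoid-primed multipotent progenitors. Each was divided again by GFP driven from Rag2, which encodes part of the enzyme that assembles antigen receptor genes. Every animal carried floxed alleles of Tal1 and the reporter. Ctrl samples are labelled wild type (Tal1 F/F) Rag2GFP, and KO samples carried in addition VaviCre, a recombinase under a regulator active across blood cells from development on, so deletion is not restricted to the sorted cells. Each of the 8 combinations of genotype, gate and reporter has 3 libraries, and ages, numbers of animals and pooling are not given in the sources used here. Nothing says that the 3 libraries came from separate animals, so p-values measure how far these libraries spread, and that spread may be technical only.

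Lineage choice in these cells begins before any lineage gene is fully active: progenitors carry low transcripts of lymphoid genes while keeping other options, a state called lymphoid priming. Ikzf1 encodes Ikaros, a zinc finger factor needed for lymphocyte development. Mef2c encodes a MADS-box factor that favours lymphoid over myeloid fate, and Satb1 a chromatin organiser that is induced as stem cells take the lymphoid path. Bcl11a encodes a zinc finger factor required for B cells and known for silencing fetal globin. Runx1 encodes the DNA-binding subunit of core-binding factor, needed for blood stem cells to form and for lymphoid maturation. TAL1, the factor deleted in KO samples, binds DNA as a dimer with E proteins at E-boxes (CANNTG) and works beside GATA factors.

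Promoter sequence is shown for the 2 members with the clearest differences, Satb1 and Mef2c, and for Runx1, the member with the most E-boxes in 1 window. Each window is the 250 bases before an annotated start, 5′ to 3′ on the gene's strand, from RefSeq (GRCm38.p6, the mm10 assembly), with every CANNTG in capitals. The Satb1 window is chr17:51826589-51826838 on the minus strand and precedes the third of 5 annotated starts. The Mef2c windows are chr13:83503784-83504033 and chr13:83573357-83573606 on the plus strand, before the first and the third of 3 starts. The Runx1 window is chr16:92826075-92826324 on the minus strand, before the first of 2 starts.
Satb1 window: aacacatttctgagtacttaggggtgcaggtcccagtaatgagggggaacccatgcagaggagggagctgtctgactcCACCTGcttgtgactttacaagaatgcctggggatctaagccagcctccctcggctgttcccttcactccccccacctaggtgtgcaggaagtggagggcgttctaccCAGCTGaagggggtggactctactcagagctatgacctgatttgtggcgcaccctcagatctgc
Mef2c window 1: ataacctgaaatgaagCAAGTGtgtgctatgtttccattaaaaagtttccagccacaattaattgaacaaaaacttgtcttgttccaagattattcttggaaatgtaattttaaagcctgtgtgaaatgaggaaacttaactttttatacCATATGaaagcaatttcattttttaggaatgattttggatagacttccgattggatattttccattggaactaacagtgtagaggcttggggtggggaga
Mef2c window 3: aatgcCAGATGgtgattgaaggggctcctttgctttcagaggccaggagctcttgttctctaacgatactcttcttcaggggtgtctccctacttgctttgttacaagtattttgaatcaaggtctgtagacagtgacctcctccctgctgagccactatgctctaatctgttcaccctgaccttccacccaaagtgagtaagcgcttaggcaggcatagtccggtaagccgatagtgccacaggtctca
Runx1 window: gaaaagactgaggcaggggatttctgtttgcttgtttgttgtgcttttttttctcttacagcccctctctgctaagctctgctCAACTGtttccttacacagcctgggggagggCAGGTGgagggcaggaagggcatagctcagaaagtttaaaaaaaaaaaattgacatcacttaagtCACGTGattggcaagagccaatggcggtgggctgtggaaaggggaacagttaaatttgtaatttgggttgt
The letters CANNTG occurred 3 times in the Runx1 window, 2 times each in the Satb1 window and the first Mef2c window and 1 time in the third Mef2c window, as CAGATG. Bcl11a had 1 match in its single window and neither of 2 Ikzf1 windows had any. The fifth Satb1 window also had 1, and the windows of Satb1, Mef2c and Runx1 not mentioned here had none, so 6 of the members' 13 windows (46.2%) hold CANNTG. Matches are palindromic in form, so both strands are covered. Of 32851 promoter windows of the same length in the mouse table, 66.2% hold CANNTG, 14.4% hold CAGATG on either strand and 9.99% hold the GATA motif AGATAA on either strand. AGATAA occurred in none of the 13 windows. These are counts of letters, and binding was not measured.

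The values are the authors' normalised counts, written here as the level of a library. The 5 members ranged from 621 (Satb1 in a Ctrl HSC GFP-negative library) to 7575 (Ikzf1 in a Ctrl LMPP GFP-positive library). Per kilobase of annotated exon, mean levels over all libraries were 757 for Ikzf1, 224 for Runx1, 160 for Satb1, 149.7 for Mef2c and 147 for Bcl11a, so Ikzf1 was the most abundant per length. Library totals, which are not read depths, were 6906083 to 11969093 normalised counts, and 22 libraries had 13583 to 15957 genes above 1 normalised count. The other two had fewer: replicate 2 of the Ctrl HSC GFP-positive group had 11982 and replicate 3 of the KO LMPP GFP-positive group 11684. These are called the low-detection libraries, and results that rest on them are given with and without them. In limma's test averaged over the other factors, Rag2 was higher in GFP-positive cells by a log2 change of 3.65 (adjusted p = 1.45e-09), Flt3 was higher in LMPP by 2.41 (adjusted p = 1.46e-08), and Tal1 was lower in KO by -2.12 (adjusted p = 0.00222). Single comparisons did not all pass: Tal1 passed in 1 of 4 populations, LMPP GFP-positive cells, with differences of -2.34 (adjusted p = 0.418) in HSC GFP-negative, -1.02 (adjusted p = 0.513) in HSC GFP-positive and -1.32 (adjusted p = 1) in LMPP GFP-negative cells. Rag2 passed in 3 of 4 settings, all but KO HSC (2.12 (adjusted p = 0.0828)), and Flt3 in 3 of 4, all but Ctrl GFP-positive cells (1.57 (adjusted p = 0.0535)). Tal1 also fell with the reporter (-1.57 (adjusted p = 0.00576)). All 6 markers of the LSK gate were measured, Kit and Ptprc among them. Of markers of mature cells that the gate excludes, 5 of 11 T cell genes and 4 of 10 B cell genes are not among the rows of the table. The measured T cell markers summed to 1.73 to 94.9 ppm of a library's total and the B cell markers to 2.54 to 28.9 ppm.

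**Figure D1:**
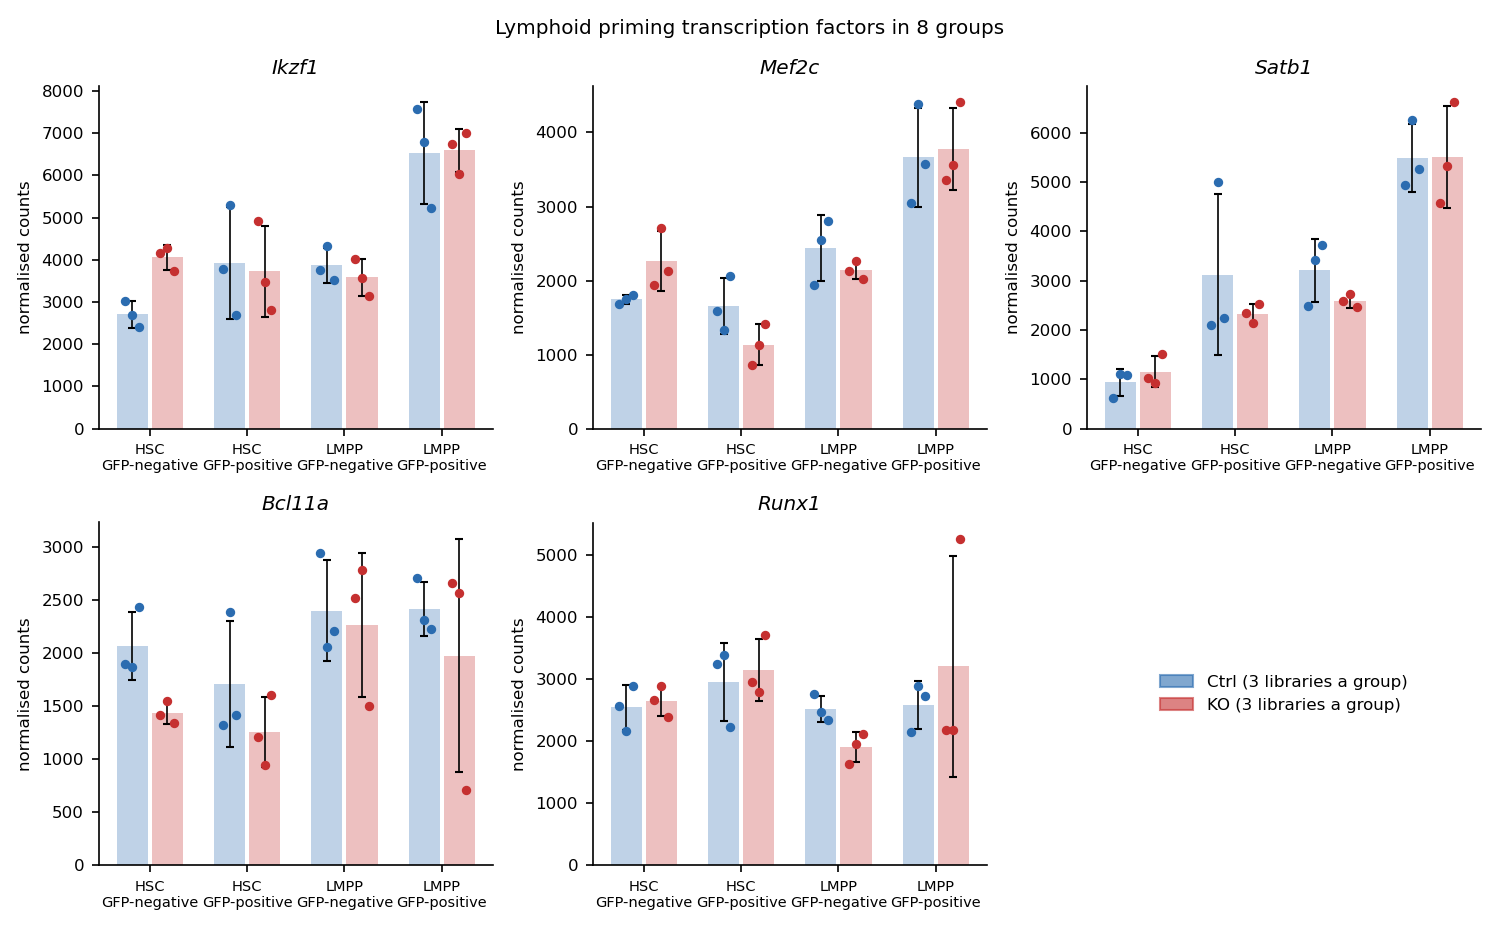
Normalised counts of the 5 members in each library (points) of the 8 groups, with the mean and SD over 3 libraries, Ctrl in blue and KO in red. Satb1 rises from a mean of 937 ± 274 in Ctrl HSC GFP-negative cells to 5492 ± 684 in Ctrl LMPP GFP-positive cells, and Mef2c is lowest in KO HSC GFP-positive cells.

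Satb1 had the steepest gradient of the 5 genes (ENSMUSG00000023927, chromosome 17, 51736187 to 51833290, minus strand, GRCm38/mm10). Its levels in the 3 Ctrl HSC GFP-negative libraries were 621, 1107 and 1085, and in KO 1025, 929 and 1507. In HSC that were GFP-positive they were 2104, 5013 and 2249.6 in Ctrl and 2338, 2135 and 2519.9 in KO. The HSC GFP-negative libraries of both genotypes were the lowest 6 of all 24. LMPP GFP-negative libraries had 2496, 3412 and 3728 in Ctrl and 2588, 2723 and 2457 in KO, which overlapped with HSC GFP-positive libraries. LMPP GFP-positive libraries had 4947, 6259 and 5271 in Ctrl and 4584, 5325 and 6622 in KO, the highest of the 8 groups, and the genotypes overlapped. In the order of group means, neighbours overlapped except at 2 steps. The LMPP GFP-positive groups lay above the next group, Ctrl LMPP GFP-negative cells, although 1 library of Ctrl HSC GFP-positive cells reached 5013, and both HSC GFP-negative groups lay below all others.

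In limma's fit to all 24 libraries, on the scale log2(value + 4.1), Satb1 rose with CD135 by 1.29 (SE 0.14, adjusted p = 1.46e-06) averaged over genotype and reporter. This is 2.44-fold. It rose with the reporter by 1.14 (SE 0.14, adjusted p = 8.98e-06) averaged over genotype and gate, which is 2.2-fold. Within single settings, it rose with CD135 by 1.80 (adjusted p = 0.00175) in Ctrl GFP-negative, by 1.19 (adjusted p = 0.0378) in KO GFP-negative and by 1.23 (adjusted p = 0.0382) in KO GFP-positive cells, and the difference of 0.93 in Ctrl GFP-positive cells did not pass (adjusted p = 0.108). Of all genes, 0.37% passed in Ctrl GFP-negative, 0.894% in Ctrl GFP-positive, 0.876% in KO GFP-negative and 0.611% in KO GFP-positive cells. The Ctrl GFP-positive comparison passed without Ctrl HSC GFP-positive replicate 2, a low-detection library with a Satb1 level of 5013 (1.33, adjusted p = 0.0116). LMPP libraries lay above HSC libraries in 3 of 4 settings, all but Ctrl GFP-positive. Between gates 14.8% of all genes did not overlap in Ctrl GFP-negative, 14.3% in Ctrl GFP-positive, 22.3% in KO GFP-negative and 14.5% in KO GFP-positive cells. The KO GFP-negative call was lost in 5 of 6 fits that left out 1 of its libraries (adjusted p up to 0.319) and so was the KO GFP-positive call (adjusted p up to 0.209). With the reporter, Satb1 rose by 1.66 (adjusted p = 0.00142) in Ctrl HSC, where the GFP-positive libraries include the low-detection library at 5013. Leaving out 1 library of that setting gave 1.26 to 1.88, and all 6 fits passed (adjusted p up to 0.0208). The differences were 1.04 (adjusted p = 0.153) in KO HSC, 0.79 (adjusted p = 0.645) in Ctrl LMPP and 1.07 (adjusted p = 0.0623) in KO LMPP, none passing. With a block for replicate or for description number in limma's fit, the KO LMPP difference passed (adjusted p = 0.036 and 0.047). GFP-positive libraries lay above GFP-negative libraries in all 4 settings. Between reporter states 17.8% of all genes did not overlap in Ctrl HSC and 2.72% passed, 14.8% and 0.0555% in Ctrl LMPP, 15.5% and 0.376% in KO HSC, and 19.1% and 1.15% in KO LMPP. In KO HSC the difference passed without the low-detection libraries, neither of which is in that setting (1.04, adjusted p = 0.0115).

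Among all genes tested, 4.18% passed for CD135, 7.23% for the reporter and 0.469% for genotype in the averaged comparisons. Of the 5 members, 3 passed for CD135 (Satb1, Mef2c and Ikzf1, all higher in LMPP), 2 for the reporter (Satb1 and Ikzf1, both higher in GFP-positive cells) and 0 for genotype. The members are named regulators of this pathway and were picked with results of these data known, so their count is set beside the background without a test. In these bulk samples a lower level can mean fewer cells that express a gene or less RNA per cell, which cannot be told apart.

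**Figure D2:**
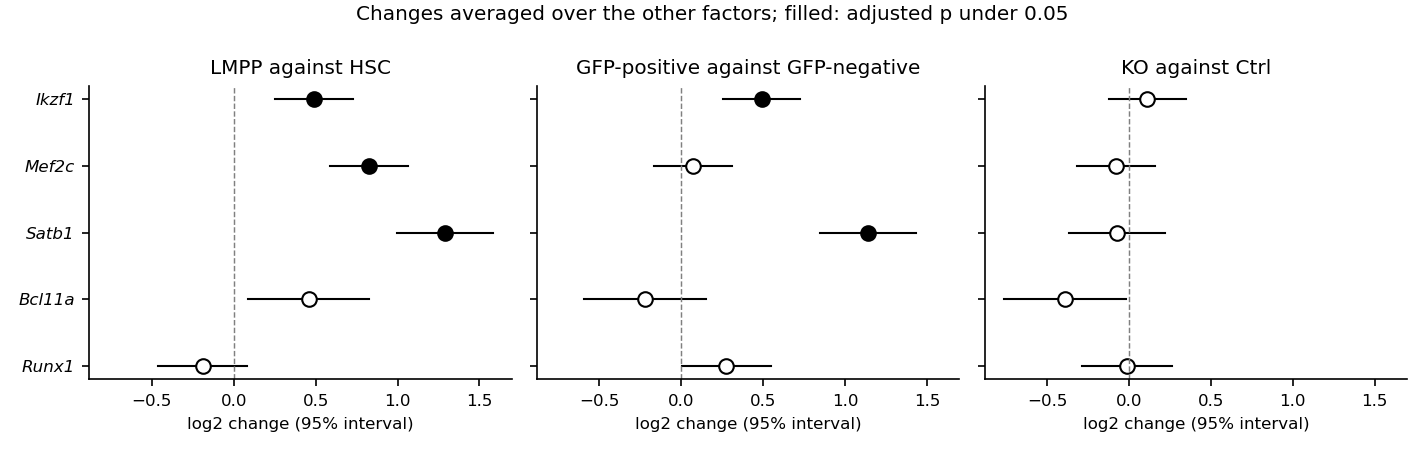
Log2 change of each member, with its 95% interval from limma, for CD135 gate, reporter state and Tal1 genotype, each averaged over the 4 combinations of the other factors. Satb1 lies furthest to the right for gate (1.29) and reporter (1.14), and the intervals for genotype include 0 except that of Bcl11a, which did not pass adjustment.

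Ikzf1 rose with CD135 and with the reporter on average, with smaller changes than Satb1 (ENSMUSG00000018654, chromosome 11, 11685003 to 11772926, plus strand). Its levels were 3027, 2688 and 2399 in Ctrl HSC GFP-negative libraries, 3779.5, 5307 and 2680.3 in Ctrl HSC GFP-positive, 3756, 4323 and 3513 in Ctrl LMPP GFP-negative and 7575, 6791 and 5215 in Ctrl LMPP GFP-positive libraries. In KO they were 4166, 4271 and 3725, then 4913, 3482 and 2799, 4011, 3573 and 3151 and 6736, 6019 and 7010.5 in the same order. The LMPP GFP-positive groups of both genotypes were highest, apart from the others but for the library at 5307 in Ctrl HSC GFP-positive cells, which overlaps the lowest Ctrl LMPP GFP-positive library at 5215, and Ctrl HSC GFP-negative cells were lowest. Ikzf1 rose with CD135 by 0.49 (SE 0.12, adjusted p = 0.0109) and with the reporter by 0.49 (SE 0.12, adjusted p = 0.00831), each 1.4-fold. The CD135 call was lost under median-of-ratios scaling (0.49, adjusted p = 0.0532). In no single setting did Ikzf1 pass: the smallest adjusted p was 0.0576, for the reporter in KO LMPP (0.88), and 2 of its 8 CD135 and reporter differences were below 0, the reporter in KO HSC (-0.16 (adjusted p = 1)) and CD135 in KO GFP-negative cells (-0.18 (adjusted p = 1)), where Satb1 was above 0. The CD135 difference in Ctrl GFP-positive cells, 0.77 (adjusted p = 0.0985), passed without Ctrl HSC GFP-positive replicate 2 (1.02, adjusted p = 0.0353). With a block for replicate in limma's fit, the reporter difference in KO LMPP passed (adjusted p = 0.0208). So did the CD135 difference in KO GFP-positive cells (0.86, adjusted p = 0.0352). A block for description number gave an adjusted p of 0.0419 for the former.

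Mef2c depended on the gate in its relation to the reporter (ENSMUSG00000005583, chromosome 13, 83504034 to 83667080, plus strand). In HSC its levels were 1681, 1747 and 1809.6 in Ctrl GFP-negative and 1581, 1328 and 2068 in Ctrl GFP-positive libraries, which overlapped. In KO HSC they were 1944, 2714 and 2129.6 in GFP-negative and 854.5, 1127 and 1408 in GFP-positive libraries, with all GFP-positive libraries lower. In LMPP the order was the opposite: 1942, 2551 and 2809.6 in Ctrl GFP-negative against 3053, 4379 and 3570.1 in GFP-positive libraries, and 2132, 2270.3 and 2019 against 3354, 3565 and 4408 in KO, with no overlap in either genotype. The reporter differences were -1.01 (adjusted p = 0.0456) in KO HSC, -0.10 (adjusted p = 0.864) in Ctrl HSC, 0.81 (adjusted p = 0.0894) in KO LMPP and 0.59 (adjusted p = 0.724) in Ctrl LMPP, so only the fall in KO HSC passed. That fall did not pass in 5 of 6 fits that left out 1 of its libraries (adjusted p up to 0.443) or under median-of-ratios scaling (adjusted p = 0.149). The KO LMPP difference passed with a block for replicate in limma's fit (adjusted p = 0.0488), but not with a block for description number.

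The difference between gates was itself tested. The reporter by gate interaction of Mef2c was 1.26 (SE 0.23, adjusted p = 0.0177) averaged over genotypes, in a comparison in which 0.13% of all genes passed. It ranged from 1.16 to 1.34 over fits that left out 1 of the 24 libraries, with adjusted p up to 0.0495, and was 1.12 (adjusted p = 0.0152) without both low-detection libraries. Under median-of-ratios scaling it was 1.24 (adjusted p = 0.0544) and did not pass. The same interaction was 0.65 (adjusted p = 0.55) for Ikzf1, -0.42 (adjusted p = 0.826) for Satb1, 0.09 (adjusted p = 0.974) for Bcl11a and 0.10 (adjusted p = 0.961) for Runx1, none passing. Averaged over gates, the reporter difference of Mef2c was 0.07 (SE 0.12, adjusted p = 0.775) and did not pass. With CD135, Mef2c rose by 0.83 (SE 0.12, adjusted p = 4.77e-05) on average, 1.77-fold. It rose by 1.15 (adjusted p = 0.0132) in Ctrl GFP-positive and by 1.76 (adjusted p = 0.000132) in KO GFP-positive cells, while the GFP-negative differences were 0.46 (adjusted p = 1) in Ctrl and -0.07 (adjusted p = 1) in KO. The Ctrl GFP-positive call was lost without Ctrl LMPP GFP-positive replicate 2 or 3 (adjusted p = 0.103 and 0.0522) and under median-of-ratios scaling (0.95, adjusted p = 0.0794).

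Markers of other cell types moved with the reporter in HSC. The summed level of 10 granulocyte and monocyte genes was 1715 to 3405 ppm in Ctrl HSC GFP-negative and 4864 to 13640 ppm in GFP-positive libraries, and in KO 782 to 985 against 2383 to 7915 ppm. Mpo, which encodes myeloperoxidase, was among those that rose. Ly6g, a defining gene of mature neutrophils, was under 1 ppm in all 6 Ctrl HSC libraries, but in 1 library each of KO HSC GFP-negative and GFP-positive cells it reached 23.1 and 34.5 normalised counts. The sum of 10 stem cell genes was 909 to 1808 against 168 to 389 ppm in Ctrl HSC and 771 to 1033 against 517 to 615 ppm in KO HSC. In LMPP that sum was lower in GFP-positive libraries too, 1359 to 1584 against 278 to 353 ppm in Ctrl and 2070 to 2418 against 214 to 547 ppm in KO. The sum of 10 erythroid genes was 459 to 686 against 33.9 to 88.3 ppm in Ctrl HSC, where 5 fell, and 554 to 914 against 165 to 244 ppm in KO HSC, where 1 fell. The 9 measured mast cell and basophil genes summed to 216 to 276 against 69.5 to 147 ppm in Ctrl HSC, where 2 fell, and to 629 to 1992 against 363 to 612 ppm in KO HSC, where 3 fell. The 6 measured T cell genes summed to 1.73 to 14.1 against 26.6 to 67 ppm in Ctrl HSC and to 7.8 to 17.5 against 19.7 to 30.7 ppm in KO HSC, and 1 of them, Trbc1, rose in both. The 8 measured dendritic cell genes, which include Tcf4 and Irf8, summed to 144 to 172 against 237 to 313 ppm in Ctrl HSC, where 1 rose. In KO HSC they summed to 132 to 179 against 195 to 257 ppm, where 0 passed, and in Ctrl LMPP GFP-positive libraries to 471 to 576 ppm. Among them Siglech was under 1 ppm throughout every group except the LMPP GFP-positive groups. The part of these marker genes in the differences of Satb1, Ikzf1 and Mef2c was not tested.

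Bcl11a varied less between groups and more within them (ENSMUSG00000000861, chromosome 11, 24078056 to 24174123, plus strand). In HSC its levels were 1898, 1865 and 2431 in Ctrl GFP-negative, 1318, 2387 and 1415 in Ctrl GFP-positive, 1413, 1548 and 1336 in KO GFP-negative and 1209, 943 and 1603 in KO GFP-positive libraries. In LMPP they were 2938, 2053 and 2201, then 2707, 2307 and 2223, 2514, 2779 and 1494 and 2655, 2561 and 704 in the same order. The lowest of all 24 values, 704, is that of KO LMPP GFP-positive replicate 3, a low-detection library. With CD135 the difference was 0.46 (SE 0.18, adjusted p = 0.185) and did not pass. Without that library Bcl11a rose with CD135 by 0.61 (adjusted p = 0.00387), and without both low-detection libraries by 0.68 (adjusted p = 0.000309), so 1 library decides this call. In KO GFP-positive cells alone, the CD135 difference of 0.46 (adjusted p = 0.624) was 1.09 (adjusted p = 0.0307) without the low-detection libraries. The reporter difference was -0.22 (adjusted p = 0.515).

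Runx1 was the flattest member: its highest group mean was 1.68 times its lowest, against 5.88 times for Satb1, 3.34 for Mef2c, 2.44 for Ikzf1 and 1.93 for Bcl11a (ENSMUSG00000022952, chromosome 16, 92601466 to 92826149, minus strand). Ctrl levels were 2571, 2169 and 2896 in HSC GFP-negative, 3244, 3387 and 2234 in HSC GFP-positive, 2756, 2465 and 2345 in LMPP GFP-negative and 2148, 2886 and 2723 in LMPP GFP-positive libraries. KO levels were 2666, 2886 and 2392, then 2948, 2791 and 3714, 1634, 1961 and 2121 and 2177, 2180.3 and 5269 in the same order. All groups overlapped with the next in the order of means except KO LMPP GFP-negative cells, which were lowest. The value of 5269 is that of the low-detection library in which Bcl11a was lowest. The differences were -0.19 (adjusted p = 0.546) for CD135 and 0.27 (adjusted p = 0.235) for the reporter, and neither passed with or without the low-detection libraries.

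**Figure D3:**
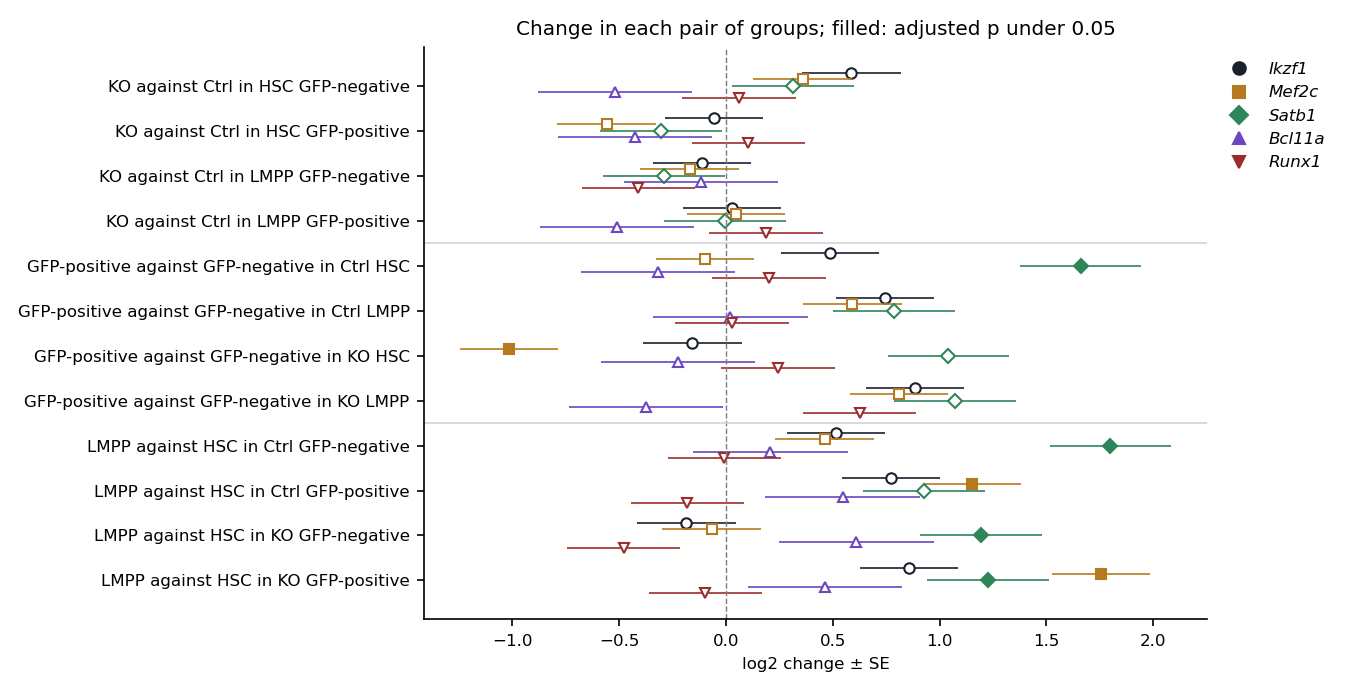
Log2 change of each member in the 12 comparisons of 2 groups that differ in 1 factor, from limma, with the cells that passed marked. The 7 that passed are all of Satb1 or Mef2c, and the KO against Ctrl comparisons have none.

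No member passed for Tal1 genotype in limma's test, on average or in any of the 4 populations, where 0.16% of all genes passed in GFP-negative and 0.432% in GFP-positive HSC, and 0.0555% in GFP-negative and 0.0432% in GFP-positive LMPP. At an unadjusted p under 0.05 there were Bcl11a on average, Ikzf1 in HSC GFP-negative and Mef2c in HSC GFP-positive cells, in comparisons in which 7.73%, 3.44% and 15.3% of all genes were under it. The averaged differences, KO minus Ctrl with 95% intervals on the log2 scale, were 0.11 for Ikzf1 (-0.12 to 0.35), -0.08 for Mef2c (-0.32 to 0.16), -0.07 for Satb1 (-0.36 to 0.22), -0.39 for Bcl11a (-0.76 to -0.02) and -0.01 for Runx1 (-0.29 to 0.26). Bcl11a had an unadjusted p of 0.039 and an adjusted p of 0.613, and its difference was -0.17 without the low-detection libraries. The intervals of the averaged differences therefore reach 0.36 in size for Ikzf1, Mef2c and Satb1 at most, and 0.76 for Bcl11a. In limma's test 76 genes passed for genotype on average, so the fit made calls for this comparison.

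In HSC GFP-negative cells, libraries of 3 members did not overlap between genotypes, where 12.7% of all genes did not overlap and 0.16% passed. Ikzf1 was 4166, 4271 and 3725 in KO against 3027, 2688 and 2399 in Ctrl, a difference of 0.59 (adjusted p = 1). Mef2c was higher in KO by 0.36 (adjusted p = 1) and Bcl11a lower by -0.52 (adjusted p = 1). In LMPP GFP-negative cells Runx1 alone did not overlap (-0.41 (adjusted p = 1), against 10.8% of all genes). In HSC GFP-positive and LMPP GFP-positive cells 0 of 5 members were apart, against 14.3% and 9.55% of genes. The largest differences there were those of Mef2c in HSC GFP-positive cells (-0.56 (adjusted p = 0.245)) and Bcl11a in LMPP GFP-positive cells (-0.51 (adjusted p = 0.688)). The latter was 0.12 without the low-detection library. Neither interaction of genotype, with reporter or with gate, passed for any member (the share of all genes was 0.00617% and 0.0123%).

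Markers of other cell types also moved with genotype. In HSC GFP-negative cells the mast cell and basophil genes summed to 216 to 276 ppm in Ctrl and 629 to 1992 ppm in KO, where 4 of 9 rose, and in HSC GFP-positive cells to 69.5 to 147 against 363 to 612 ppm, where 2 rose. In LMPP GFP-negative cells they summed to 41.5 to 63.6 against 73.3 to 494 ppm, where Mcpt4 rose, and in LMPP GFP-positive cells the ranges overlapped. The stem cell sum was higher in KO in HSC GFP-positive cells (168 to 389 against 517 to 615 ppm). It was also higher in LMPP GFP-negative cells (1359 to 1584 against 2070 to 2418 ppm), and its ranges overlapped in the other populations. Of the 10 erythroid genes, Hba-a1 and Hbb-bs, globin genes with near-identical copies, rose in KO in all 4 populations. In GFP-negative cells the granulocyte and monocyte sum was lower in KO. It was 1715 to 3405 against 782 to 985 ppm in HSC, where 0 of 10 passed in limma's test. In LMPP it was 1032 to 1417 against 359 to 469 ppm, where Mpo and Ctsg fell. In GFP-positive cells the ranges overlapped, 4864 to 13640 against 2383 to 7915 ppm in HSC and 799 to 1661 against 304 to 1145 ppm in LMPP. There 0 of 10 passed in either gate. Their part in the genotype differences of the members was not tested.

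In GFP-negative cells the difference of LMPP from HSC was -0.18 in KO and 0.52 in Ctrl for Ikzf1, and -0.07 and 0.46 for Mef2c. None of these passed (adjusted p of at least 0.972), and the difference between genotypes was tested only as the average over reporter states, which did not pass (-0.31 (adjusted p = 0.829) for Ikzf1 and 0.04 (adjusted p = 0.98) for Mef2c).

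The pathway around the members was read from a list of 20 lymphoid priming genes outside transcription factors, of which 16 were tested. With the reporter 11 rose, 0 fell and 5 did not pass, with a median log2 change of 1.57 against -0.14 over all genes. Il7r, a receptor chain of lymphoid progenitors, rose by 4.29 and Dntt, the terminal transferase, by 2.90, both more than Satb1. Notch1 rose by 1.57. Rag2 itself rose, and it is the gene of the sort. With CD135 8 rose and 0 fell (median 1.37 against 0.02), among them Dntt (2.93), Flt3, the gene of the gate, and Notch1 (1.78). Without the low-detection libraries 10 rose and 1 fell. With genotype 0 rose and 1 fell, with a median of -0.31 against 0.03.

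Among 18 other lymphoid transcription factors tested, 5 rose and 1 fell with the reporter. Irf8, a factor of dendritic and B cells, rose by 2.78, Tcf7, a T lineage factor, by 2.61 and Ebf1, a B lineage factor, by 1.43, with Tcf4 (0.47) and Myb (0.44). Ebf1 was near the floor. It was under 1 ppm in every library of Ctrl LMPP, KO HSC and KO LMPP GFP-negative cells. The same held in Ctrl HSC GFP-positive cells, but not in Ctrl HSC GFP-negative cells, so its rise was not seen in that setting. Foxo1 fell (-0.88). With CD135 3 rose, Irf4 (1.85), Tcf4 (0.94) and Sox4 (0.71), and 2 fell, Tcf7 (-2.79) and Myb (-0.36), or 5 and 2 without the low-detection libraries. In comparisons of 2 groups Tcf7 passed only for the reporter in Ctrl HSC and for CD135 in Ctrl GFP-positive cells. Both involve the Ctrl HSC GFP-positive group. For genotype 0 of 18 passed in limma's test and 3 of 18 had an unadjusted p under 0.05, against 7.73% of all genes. The median changes were 0.26, 0.25 and -0.21 for reporter, CD135 and genotype.

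Of 12 family relatives and partners of the members 10 were tested, with 1 rise and 2 falls for the reporter, 1 rise and 3 falls for CD135 and 1 fall for genotype. Ikzf2, which encodes the Ikaros relative Helios, fell with the reporter (-0.86) and with CD135 (-0.50) on average, where Ikzf1 rose. Its reporter by gate interaction passed (-1.32 (adjusted p = 0.0328)), and it had differences above 0 with the reporter in KO HSC (0.09 (adjusted p = 1)) and with CD135 in KO GFP-negative cells (0.43 (adjusted p = 0.798)), neither passing. Ikzf4, which encodes Eos, fell with the reporter (-1.71). Runx2 rose with CD135 (0.82) and Runx3 fell (-0.69), while Cbfb, the partner subunit of all RUNX factors, had -0.04 (adjusted p = 0.956) and 0.24 (adjusted p = 0.423) for CD135 and the reporter. Bcl11b, a T lineage relative of Bcl11a, was found in Ctrl HSC GFP-positive cells at 134 ± 53.2 normalised counts and at 0 to 4.68 in every other group. Its rise with the reporter, its fall with CD135 and its fall in KO come from that 1 group. Without the low-detection libraries that group has fewer than the 3 libraries the filter asks for. Bcl11b then drops out whatever its level and was not tested. Among the 9 relatives tested without those libraries, 0 rose and 2 fell with the reporter, 2 rose and 1 fell with CD135 and 0 changed with genotype.

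Over the 24 libraries the genes closest to each member by Pearson r, among 9759 genes with a mean of at least 5 ppm, differed between members. For Satb1 they were Dntt (0.95), Notch1 (0.94) and Ighm (0.93), all 3 of which also rose with CD135 and the reporter. For Ikzf1 they were Cd93 (0.94), Camk1d (0.84) and Ctr9 (0.82), and for Mef2c St6gal1 (0.84), Wfs1 (0.78) and Tcf4 (0.75). For Bcl11a they were Phlpp1 (0.85), Nbeal2 (0.82) and Rxra (0.81), and for Runx1 Ap3m1 (0.84), Rwdd1 (0.82) and Paqr4 (0.80). Without the low-detection libraries the coefficients of the Satb1, Ikzf1 and Mef2c neighbours stayed between 0.71 and 0.95, and those of the Runx1 neighbours were 0.67 to 0.70. These libraries share groups and normalisation, and the coefficients are descriptions of these 24 libraries.

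Between members, Ikzf1 and Satb1 had an r of 0.72, Ikzf1 and Mef2c 0.56 and Satb1 and Mef2c 0.51 over all libraries. Taken as deviations from the group means, Ikzf1 and Satb1 had 0.22 and Ikzf1 and Mef2c -0.56. In both HSC GFP-positive groups the library with the most Ikzf1 had the least Mef2c. Their levels were 5307 and 1328 in Ctrl, a low-detection library, and 4913 and 854.5 in KO. The same held in Ctrl HSC GFP-negative cells (3027 and 1681) and in Ctrl LMPP GFP-positive cells (7575 and 3053). In KO HSC GFP-negative cells 1 library had the most of both (4271 and 2714). So did 1 in KO LMPP GFP-positive cells (7010.5 and 4408), a low-detection library. The LMPP GFP-negative groups showed neither order. The coefficient of deviations was not computed without the low-detection libraries. Bcl11a and Runx1 had -0.56 over all libraries and -0.42 without the low-detection libraries. Without them Ikzf1 and Satb1 had 0.67, Ikzf1 and Mef2c 0.57 and Mef2c and Satb1 0.55. Other pairs moved more. Bcl11a went from 0.25 to 0.65 with Mef2c, from 0.18 to 0.42 with Satb1 and from 0.095 to 0.34 with Ikzf1. Runx1 went from 0.17 to -0.13 with Ikzf1, from -0.06 to -0.34 with Mef2c and from 0.13 to -0.18 with Satb1.

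Annotated transcripts inside the Satb1 gene were read beside it. Of 6 that overlap it, Gm37248 lies on the same strand with no exon in common, and it rose with CD135 (1.69, adjusted p = 0.00103) and with the reporter (1.08, adjusted p = 0.0305), as Satb1 did. Gm36931 on the same strand shares 156 bases and Gm6934 on the opposite strand 128 bases of exon with Satb1, and neither passed for CD135 or the reporter. Bcl11a shares 316 bases of exon with the antisense transcript 4930538E20Rik and Runx1 106 bases with Gm26626. The sources used here do not give whether the authors' counting used the strand, so reads of a member and of an antisense partner cannot be told apart in those bases.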

How the data were processed

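Total RNA of sorted cells was made into libraries with a low-input kit and sequenced for 76 cycles, per the labels' protocols. The submitters' processing notes name Trimmomatic 0.33 for trimming, HTSeq 0.6.1 for counting, edgeR without a version, and the mm10 build. The sources used here do not give the aligner, the normalisation function or the strand setting. What the authors deposited is 1 signal value per gene and library, a normalised count. Low values lie in bands 0.557 to 1.77 normalised counts apart, but the spacing shifts with the gene. Whole reads were therefore not recovered, no count model was run, and depth in reads is unknown.

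A gene was tested if it reached 1 ppm in 3 or more libraries (16215 of 17149 genes). Values were taken as log2(value + 4.1), 4.1 being 0.5 ppm of the mean library total, which understates changes of genes near 0. Version 3.58.1 of limma (R 4.3.3) estimated 8 group means from the 24 libraries, with an intensity trend and 16 residual plus 9.53 prior degrees of freedom. Within each of 18 comparisons (12 of 2 groups, 3 averaged, 3 interactions), p was adjusted over all genes by the Benjamini-Hochberg method. The words rose and fell are kept for an adjusted p under 0.05. Simulated data with known changes served to test the fit. Gene positions and exon lengths came from GENCODE M21, promoters from RefSeq (GRCm38.p6).

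The members and gene lists were chosen with earlier results of these data known. Listed genes were named where they passed an averaged comparison, at most 6 of a list by smallest p. For each member the 3 genes of highest r were named, leaving out predicted genes, clone names and antigen receptor segments. Alternatives were another pseudocount, no filter, median-of-ratios scaling, leaving out each library or both low-detection libraries, and blocks by replicate or description number. The list counts without the low-detection libraries were added after seeing the data. The values of 1 listed gene are not reported here.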

Additional observations from a re-analysis of the deposited data

Results flagged for a closer look

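The relation of Mef2c to the Rag2 reporter differed between CD135-negative and CD135-positive cells in a direct test of that difference: the interaction was 1.26 on the log2 scale (SE 0.23, adjusted p = 0.0177 by limma, n = 3 libraries in each of 8 groups). GFP-positive libraries were higher than those GFP-negative libraries with the same description number in 6 of 6 pairs of LMPP and in 1 of 6 pairs of HSC. In LMPP the reporter states did not overlap in either genotype, so any pairing would give 6 of 6 there. The reporter differences were -1.01 (adjusted p = 0.0456) in KO HSC and -0.10 (adjusted p = 0.864) in Ctrl HSC, 0.81 (adjusted p = 0.0894) in KO LMPP and 0.59 (adjusted p = 0.724) in Ctrl LMPP by limma. With each of the 24 libraries left out the interaction was 1.16 to 1.34, and under median-of-ratios scaling it was 1.24 (adjusted p = 0.0544 by limma) and did not pass. Groups of 3 libraries were not tested for an outlying value.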

How the results depend on the processing

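Over the alternatives, 1507 of 1620 values of single members kept their direction and side of the threshold, 75 that passed in neither fit changed direction, 24 lost a call, 14 gained one and 0 of the called ones reversed. The averaged calls of Satb1 (CD135 and reporter), Mef2c (CD135) and Ikzf1 (reporter) held throughout. The number of members passing was more fragile. In KO HSC by reporter it was 1, but 0 under median-of-ratios scaling, 2 without the low-detection libraries and 0 to 1 when 1 library was left out. For CD135 in Ctrl GFP-positive cells it was 1, but 0 under that scaling, 3 without the low-detection libraries and 0 to 3 with 1 library left out. In KO GFP-negative cells it was 1, but 0 with a pseudocount of 0.1 ppm or that scaling and 0 to 1 with 1 left out. In KO GFP-positive cells it was 2, but 1 under that scaling, 3 without the low-detection libraries or with the replicate block, and 1 to 2 with 1 left out, and for the reporter by gate interaction 1, but 0 under that scaling. The causes were not tested.

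Without the low-detection libraries the number of genes passing went from 26 to 52 (KO in HSC GFP-negative), 70 to 312 (KO in HSC GFP-positive), 9 to 19 (KO in LMPP GFP-negative), 441 to 728, 9 to 76 and 61 to 145 (reporter in Ctrl HSC, Ctrl LMPP and KO HSC). It went from 60 to 131, 145 to 575 and 142 to 459 (CD135 in Ctrl GFP-negative, Ctrl GFP-positive and KO GFP-negative), 76 to 142 and 677 to 1372 (averaged genotype and CD135) and 21 to 42 (reporter by gate). A pseudocount of 0.1 ppm gave 13 (KO in HSC GFP-negative), 3 (reporter in Ctrl LMPP), 90 (CD135 in KO GFP-negative), 2 (genotype by reporter, 1 in the main analysis) and 1 (genotype by gate, otherwise 2). No filter gave 14 (reporter in Ctrl LMPP), and median-of-ratios scaling 0 (genotype by reporter). With 1 library left out, KO comparisons gave 2 to 43, 8 to 704, 0 to 5 and 0 to 6 genes (GFP-negative and GFP-positive HSC, then GFP-negative and GFP-positive LMPP). Reporter comparisons gave 174 to 1198, 0 to 11, 19 to 97 and 54 to 370 (Ctrl HSC, Ctrl LMPP, KO HSC, KO LMPP), and CD135 comparisons 29 to 51, 36 to 909, 37 to 152 and 30 to 129 (Ctrl GFP-negative, Ctrl GFP-positive, KO GFP-negative, KO GFP-positive). The averaged comparisons gave 46 to 99 (genotype), 885 to 1520 (reporter) and 533 to 940 (CD135), and the interactions 1 to 4, 2 to 4 and 13 to 32. Median-of-ratios scaling moved the median of all genes by up to 0.16, and the share of higher calls from 84.6 to 73.1% and 72.9 to 58.1% (KO in HSC GFP-negative and GFP-positive), 71.4 to 83.3% (KO in LMPP GFP-positive) and 64.1 to 52.5% (CD135 in Ctrl GFP-positive).

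Libraries that share a description number deviated from their group means with r of -0.03 to 0.20 (median 0.06, 8 of 36 pairs over 0.1). Pairs that share neither a description number nor a replicate number had a median of -0.02, with 1 of 168 over 0.1. Pairs with the same replicate number but the other genotype, and so other description numbers, had a median of 0.03, with 5 of 48 over 0.1. Libraries that share either number thus shared a small part of their variation. What a description number stands for is not given in the labels, and the main fit did not pair samples by either number. With the replicate block, 3 members passed for the reporter in KO LMPP, and 2 with a block by description number (within-number correlation 0.04), against 0 without. Under the replicate block 15 genes passed for KO in LMPP GFP-negative cells and 4 for genotype by gate, and under the block by description number 50 for averaged genotype.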
